A study of Mus musculus with 15 samples.

Results

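Thyroid hormone receptors and genes that answer to the hormone were followed through the postnatal life of the mouse cerebellum. The set was chosen by name, with earlier results of these data known, and holds 6 genes. They are the receptors Thra and Thrb, the responsive genes Klf9 and Hr, the activating deiodinase Dio2 and the corepressor Ncor1. The platform's annotation gives a probe set with a single symbol to 5 of the 6, out of 19500 genes so represented, and each of the 5 has 1 probe set. Ncor1 was not analysed here.

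The RNA came from Tg(Pcp2-L10a-Egfp) mice, in which the Pcp2 promoter, active in Purkinje cells, drives a ribosomal protein joined to a green fluorescent protein. Translating ribosome affinity purification (TRAP) pulls those ribosomes out of homogenised tissue with antibodies against the fluorescent protein, and the RNA that comes with them is hybridised to Affymetrix arrays. Cerebella were pooled, and 3 arrays were made at each of 5 ages, P0, P7, P15, P21 and P56 (days after birth), with no treatment and with the transgene in every group. The labels give no sex, strain or number of animals per pool, and tissue without purification was not analysed here, so all values are signals of the purified RNA and not enrichments over the cerebellum.

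Thyroid hormone enters cells through membrane transporters. The prohormone T4 is turned into the active hormone T3 by the deiodinase that Dio2 encodes, and T3 binds nuclear receptors that sit on DNA, mostly paired with a retinoid X receptor. Without hormone the receptors recruit corepressors, and with hormone they exchange these for coactivators. In the cerebellum the hormone is known for its part in the growth of the Purkinje cell dendrite and in the migration of granule cells during the weeks after birth.

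Values are the deposited log2 signals, so a difference of 1 is a doubling. A mean is given with the SD of 3 arrays, and a change with its standard error (SE) from limma, fitted to all 15 arrays. A change was called at a Benjamini-Hochberg adjusted p under 0.05 over all 22092 probe sets. The lower quartile of an array lay between 5.86 and 6.01, and a signal under it is not shown to be above background. Arrays of 1 age correlated with each other at 0.994 to 0.999. The label of the purification was checked against Purkinje cell markers (8 measured genes, among them Pcp2, Calb1 and Car8). Their mean lay at 8.77 to 8.82 on the P0 arrays and at 13.06 to 13.28 on the arrays of the other ages. At P0 they differed widely, with Ppp1r17 at 4.94 to 5.18, under the lower quartile, and Calb1 at 10.75 to 11.10. The P0 mean lay below that of astrocyte and Bergmann glia markers on the same arrays (10.57 to 10.61). Each comparison with P0 thus sets arrays with a lower Purkinje cell marker signal against later ones. The part of this in the changes from P0 was not tested for any gene. Markers of other cells gave signal throughout, with a mean of 9.67 to 10.61 over all arrays for 10 genes of astrocytes and Bergmann glia and of 7.48 to 11.01 for 6 genes of oligodendrocytes. Aldoc, 1 of those 10 genes, lay at 12.75 to 12.78 at P0 and at 13.61 to 13.68 at P7. How much of its signal came from Purkinje cells was not tested. In such pooled RNA, fewer cells of a type and less RNA per cell cannot be told apart. Array medians were on average 0.32 lower at P56 than at P0 (−0.32) and 0.23 lower than at P21 (−0.23). Of all called probe sets, 54.1% were higher at P7 than at P0 (59.5% with array medians subtracted), 43.3% at P15 than at P7 (62.2%), 59.5% at P21 than at P15 (45.9%), 39.3% at P56 than at P21 (69.1%, and 49.96% after quantile normalization) and 53.2% at P56 than at P0 (70.2%).

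**Figure D1:**
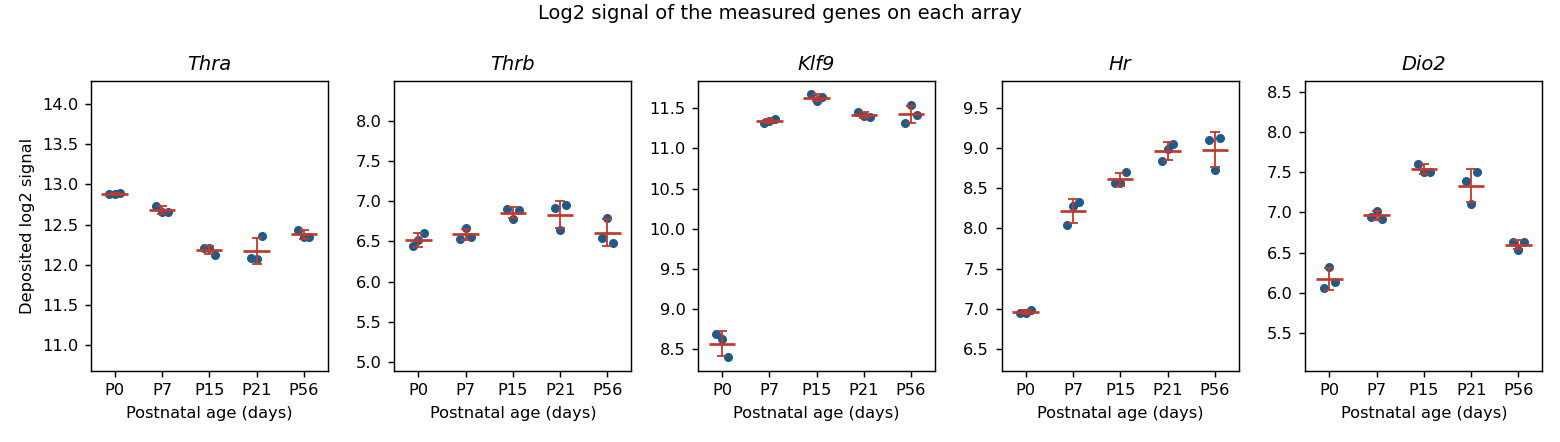
Deposited log2 signal (vertical axis) of Thra, Thrb, Klf9, Hr and Dio2 at 5 postnatal ages (horizontal axis). Points are single arrays, red bars are the mean ± SD of 3 arrays, and every panel spans the same number of log2 units around its own centre; Klf9 steps up between P0 (mean 8.57) and P7 (11.34), Hr climbs from 6.96 to 8.98, Dio2 is highest at P15 (7.54) and Thra is highest at P0 (12.88).

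The first comparison asks how the receptors changed with age. Thra encodes the receptor TRα, and by alternative splicing also a form that does not bind the hormone; which of these forms the probe set reads is not known here. Its signal was 12.88, 12.88 and 12.89 on the P0 arrays and 12.74, 12.66 and 12.65 at P7. It was 12.21, 12.22 and 12.13 at P15, 12.08, 12.08 and 12.36 at P21 and 12.44, 12.35 and 12.35 at P56. The 3 newborn arrays were thus the highest of all 15 and lay close together, and the arrays of P7 lay above those of every later age. At P21, 1 array (replicate 3) stood above the other two, inside the range of the P56 arrays.

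From P0 to P7 Thra fell by 0.20 (SE 0.07, adjusted p 0.0264), a call that ended when array medians were subtracted (−0.14) and without P0 replicate 1, 2 or 3 or P7 replicate 2 or 3 (−0.19 to −0.20). Over the settings that kept all arrays or used 2 ages, this change lay between −0.39 and −0.14. From P7 to P15 it fell by 0.50 (SE 0.07, adjusted p 1.21e-04), to 12.19 ± 0.05 (n = 3), and 802 of 19500 genes fell more in that step. P21 did not differ from P15 beyond the spread (−0.01, adjusted p 0.954). After P21 Thra rose by 0.20 (SE 0.07, adjusted p 0.0269), which ended without P21 replicate 1 (0.16), P21 replicate 2 (0.16) or P56 replicate 1 (0.17) and grew to 0.44 with array medians subtracted. The adult level stayed 0.50 below the newborn level (log2 change −0.50, SE 0.07, adjusted p 8.85e-06), or 0.18 below it (−0.18) with array medians subtracted. The same settings as above gave −0.64 to −0.18 for this change. The order of the levels was P0, P7, P56, P15 and P21, and in this order only P15 and P21 were neighbours that did not differ beyond their spread. Genes of dividing cells fell beside Thra between P7 and P15: the mean of 4 such genes (Mki67, Top2a, Ccna2 and Cdk1, all lower) went from 8.75 to 8.94 on the P7 arrays to 6.82 to 6.996 on the P15 arrays, and their part in the fall of Thra was not tested.

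Nr1d1, which encodes the clock repressor REV-ERBα, overlaps the Thra gene in RefSeq's annotation (GRCm38.p6) and is known to be read from the other strand. In the first week its signal moved the other way: it was 9.58, 9.57 and 9.68 at P0 and 11.76, 11.80 and 11.81 at P7, a rise of 2.18 (SE 0.07, adjusted p 3.35e-14). Between P7 and P15 it fell by 0.23 (SE 0.07, adjusted p 0.0279), the step at which Thra fell too, although that call of Nr1d1 ended with array medians subtracted (−0.16, adjusted p 0.119). It rose by 0.36 between P21 and P56 (SE 0.07, adjusted p 3.99e-04), as Thra did. The genes thus went apart in the first week and had the same direction at these later steps.

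Thrb encodes the receptor TRβ, whose forms differ in their first exons. The promoter of 1 of its starts is shown because it is the only window of these genes that holds the core hexamer of the thyroid hormone response element. RefSeq's promoter table (GRCm38.p6) lists 4 of the 6 genes, with 6 start sites; 250 bases upstream of each were searched on both strands for the hexamer AGGTCA and for its direct repeat (DR4), the hexamer, any 4 bases and the hexamer again, which contains the single hexamer. The hexamer was found in 14% and the repeat in 0.0152% of 32851 promoters of the same length. The Thrb window is chr14:17660710-17660959, plus strand, with the hexamer in capitals, and 178 bases lie between its end and the start:
Thrb: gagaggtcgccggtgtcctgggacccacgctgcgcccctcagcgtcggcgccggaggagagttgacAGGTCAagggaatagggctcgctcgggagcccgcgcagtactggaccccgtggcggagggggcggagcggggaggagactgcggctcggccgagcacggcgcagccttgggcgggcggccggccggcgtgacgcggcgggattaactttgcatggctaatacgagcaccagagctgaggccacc
The sequence is 71.6% G and C. The repeat was not among these letters, nor in the other windows, which says nothing of where a receptor binds.

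The Thrb signal was 6.44, 6.52 and 6.61 at P0 and 6.53, 6.67 and 6.56 at P7. It was 6.91, 6.78 and 6.89 at P15, 6.91, 6.64 and 6.95 at P21 and 6.54, 6.80 and 6.49 at P56. The 3 arrays of P15 lay above all 6 earlier arrays, while at P21 replicate 2 and at P56 replicate 2 lay apart from the rest of their age. From P0 to P7 the change was 0.07 (SE 0.09, adjusted p 0.565). From P7 to P15 Thrb rose by 0.27 (SE 0.09, adjusted p 0.0436), and P15 was 0.34 above P0 (SE 0.09, adjusted p 0.00415). The step from P7 to P15 was near the threshold: the call ended with quantile normalization (adjusted p 0.0716) and a trended prior (0.0533), without P0 replicate 1 or 2, P7 replicate 1, 2 or 3 or P15 replicate 1 or 3 (adjusted p up to 0.145). From P15 to P21 the change was −0.03 (adjusted p 0.910). From P21 to P56 Thrb fell by 0.23 (SE 0.09, adjusted p 0.0499). That call is weak: it held when P21 replicate 2 (−0.32) or P56 replicate 2 (−0.32) was left out, ended without any other array of the 15 (−0.16 to −0.23) and under 6 other settings, and the sign turned with array medians subtracted (0.0096). The order of the levels was P15, P21, P56, P7 and P0, and apart from P21 and P56 no neighbours in this order differed beyond their spread. The whole span of the age means was 0.34.

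The receptor genes did not change alike. The difference between the changes of Thrb and Thra was tested as a row of its own, made of the difference of both signals on each array and fitted beside the 22092 probe sets. From P7 to P15 Thrb changed by 0.77 more than Thra (SE 0.10, adjusted p 2.72e-05), and over the whole time from P0 to P56 by 0.59 more (SE 0.10, adjusted p 3.56e-05). From P21 to P56 the sign was the opposite (−0.43, SE 0.10, adjusted p 0.00129). From P0 to P7 the difference of 0.27 (SE 0.10, adjusted p 0.0259) lost its call without P0 replicate 1 or 2 or P7 replicate 2 or 3 (0.22 to 0.27), and from P15 to P21 it was −0.01 (adjusted p 0.955). Subtraction of array medians leaves this difference as it is, since it cancels on an array, but its size was not the same under every setting. Over 6 other settings it was 0.27 to 0.55 from P0 to P7 and 0.59 to 0.84 from P0 to P56, called in all 6. No level of one gene is set against the other here, because probe sets differ in brightness for reasons of sequence.

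The second comparison asks how genes that answer to thyroid hormone changed. Klf9 encodes a zinc finger transcription factor that is induced directly by the hormone in neurons and also by glucocorticoids. Its signal was 8.69, 8.63 and 8.40 on the P0 arrays and 11.32, 11.34 and 11.36 at P7. It was 11.67, 11.59 and 11.63 at P15, 11.45, 11.40 and 11.39 at P21 and 11.32, 11.53 and 11.42 at P56. All 12 later arrays lay far above the 3 newborn arrays, and the P15 arrays lay above the other 12. From P0 to P7 Klf9 rose by 2.77 (SE 0.08, adjusted p 3.78e-15), which is 6.81-fold, and 149 of 19500 genes rose more. From P7 to P15 it rose by a further 0.29 (SE 0.08, adjusted p 0.00981). From P15 to P21 the change was −0.22 (SE 0.08, adjusted p 0.0618); the arrays of these ages did not overlap, and the fall was called with array medians subtracted (−0.26), with a trended prior, among the brightest 50% of probe sets and without P0 replicate 3 or P56 replicate 1 or 2 (adjusted p from 0.0297). From P21 to P56 the change was 0.01 (adjusted p 0.942), or 0.24 and called (adjusted p 0.0110) with array medians subtracted. The adult was 7.20-fold above the newborn (log2 change 2.85, SE 0.08, adjusted p 1.35e-15). In the order P15, P56, P21, P7 and P0, P56 did not differ from P21 and P21 did not differ from P7 (adjusted p 0.560) beyond the spread.

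The 250 bases before the Klf9 start are shown beside those of Dio2 below, since both genes rose at P7 and again at P15. Neither holds the hexamer AGGTCA, so nothing is in capitals. The Klf9 window is chr19:23140976-23141225 on the plus strand of GRCm38.p6, with 59.6% G and C, and the Dio2 window is chr12:90739039-90739288 on the minus strand, with 41.6%:
Klf9: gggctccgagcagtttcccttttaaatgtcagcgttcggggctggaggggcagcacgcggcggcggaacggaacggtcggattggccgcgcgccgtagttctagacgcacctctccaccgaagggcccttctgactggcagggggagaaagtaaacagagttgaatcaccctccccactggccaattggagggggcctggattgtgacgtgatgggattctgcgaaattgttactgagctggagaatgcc
Dio2: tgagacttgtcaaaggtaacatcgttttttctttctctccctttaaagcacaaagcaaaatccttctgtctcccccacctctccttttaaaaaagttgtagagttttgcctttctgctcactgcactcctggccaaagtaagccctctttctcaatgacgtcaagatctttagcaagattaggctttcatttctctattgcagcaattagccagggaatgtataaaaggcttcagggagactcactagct

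The rise of Klf9 in the first week fell together with that of the Purkinje cell markers, whose mean went from 8.77 to 8.82 on the P0 arrays to 13.10 to 13.14 on the P7 arrays (8 of 8 higher). Over the same week the mean of 6 endothelial markers went from 9.24 to 9.30 down to 7.03 to 7.10 (6 of 6 lower). Markers of other cells rose with Klf9 in that week: the mean of 5 granule cell markers went from 8.23 to 8.25 up to 10.98 to 11.13 (4 of 5 higher), and that of 6 oligodendrocyte markers from 7.48 to 7.66 up to 9.85 to 10.07 (6 of 6 higher). The part of a change in captured RNA in the rise of Klf9 was not tested. After P7 the Purkinje cell markers moved little (13.06 to 13.28 over the 12 arrays), and Klf9 kept within 11.32 to 11.67 on those arrays.

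Hr encodes hairless, a nuclear corepressor that binds thyroid hormone receptors and RORα, and is a textbook hormone-induced gene of the developing cerebellum. Its signal was 6.95, 6.95 and 6.99 at P0 and 8.04, 8.28 and 8.32 at P7. It was 8.56, 8.57 and 8.71 at P15, 8.84, 8.98 and 9.05 at P21 and 9.10, 8.72 and 9.12 at P56. No array of P0, P7, P15 or P21 overlapped with those of another of these 4 ages, so the gene climbed in steps, while P56 replicate 2 lay between the arrays of P15 and P21. The rise was 1.25 from P0 to P7 (SE 0.10, adjusted p 5.12e-09), 0.40 from P7 to P15 (SE 0.10, adjusted p 0.00777) and 0.35 from P15 to P21 (SE 0.10, adjusted p 0.0252). A call of a rise at each of these 3 steps was given to 73 probe sets, 0.33% of all. The second step lost its call without P7 replicate 1 (0.31, adjusted p 0.0571). The third lost it without P15 replicate 1 or 2 or P21 replicate 2 or 3 (0.30 to 0.33) and narrowly with quantile normalization (0.29, adjusted p 0.0511). From P21 to P56 the change was 0.02 (SE 0.10, adjusted p 0.869), which became a called rise with quantile normalization (0.30, adjusted p 0.0165) and with array medians subtracted (0.26, adjusted p 0.0290). The adult stood 4.05-fold above the newborn (log2 change 2.02, SE 0.10, adjusted p 4.79e-12), and in the order P56, P21, P15, P7 and P0 only P56 and P21 did not differ beyond their spread. At the first step of Hr the Purkinje cell markers rose (8 of 8 higher, median change 4.19). Markers of endothelium (6 of 6), microglia (5 of 5), meningeal fibroblasts (4 of 4) and cerebellar interneurons (4 of 4) fell. Beside the first and second steps, oligodendrocyte markers (6 of 6 higher, then 5 of 6) and granule cell markers (4 of 5 higher at each) rose. From P15 to P21, 2 of the 6 oligodendrocyte markers rose, and of the 5 granule cell markers 2 rose and 2 fell. The part of these shifts in the climb of Hr was not tested.

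Dio2 encodes the type 2 deiodinase, which in brain is known from astrocytes and tanycytes rather than neurons. Its signal was 6.06, 6.32 and 6.13 at P0 and 6.94, 7.02 and 6.92 at P7. It was 7.60, 7.51 and 7.51 at P15, 7.39, 7.10 and 7.50 at P21 and 6.63, 6.53 and 6.63 at P56. The signal was thus highest in the middle of the series, with P15 above every other age, P21 replicate 2 closer to P7 than to the rest of its age, and the P56 arrays between those of P0 and P7. Dio2 rose by 0.79 from P0 to P7 (SE 0.09, adjusted p 6.09e-07) and by 0.58 from P7 to P15 (SE 0.09, adjusted p 2.11e-04), when 254 of 19500 genes rose more. The change from P15 to P21 was −0.21 (SE 0.09, adjusted p 0.143), and from P21 to P56 Dio2 fell by 0.73 (SE 0.09, adjusted p 2.80e-06). The adult was 0.43 above the newborn (SE 0.09, adjusted p 4.67e-04), or 0.75 above it with array medians subtracted. In the order P15, P21, P7, P56 and P0 each neighbour differed from the next except P15 and P21. A rise at the first and second step with a fall at the last was called for 3.09% of probe sets.

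Dio2 and the markers of astrocytes and Bergmann glia went apart in the first week. The mean of these 10 genes went from 10.57 to 10.61 at P0 down to 10.17 to 10.23 one week later (3 higher, 6 lower), while Dio2 rose. In the second week 5 of the markers rose with Dio2 and 3 fell, with a median change of 0.30 and means of 10.27 to 10.34 on the P15 arrays. After P21 both went down, the markers from 10.23 to 10.27 to 9.67 to 9.84 (2 higher, 6 lower). The mean of the 6 oligodendrocyte markers, like Dio2, was higher in the middle of the series than at either end. It was 7.48 to 7.66 on the P0 arrays and 9.85 to 10.07 on those of P7. The P15 arrays had 10.57 to 10.65, the P21 arrays 10.75 to 11.01 and the P56 arrays 9.53 to 9.67. Of the 6 markers, 5 were lower at P56 than at P15, where 32.9% of all probe sets were. Ermn lay at 8.54 to 8.99 on the P15 arrays and at 8.83 to 9.08 on those of P56. Whether these cells had a part in the course of Dio2 was not tested.

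**Figure D2:**
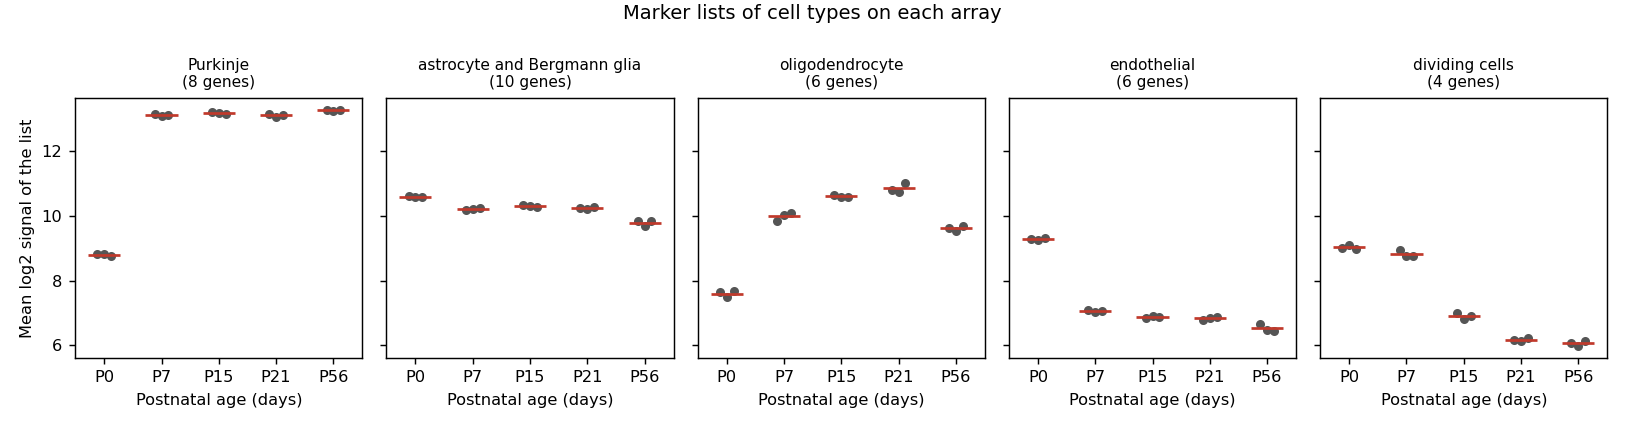
Mean log2 signal (vertical axis) of marker genes of 5 kinds of cell on each array at 5 postnatal ages (horizontal axis); points are arrays and red bars the mean of 3 arrays. Purkinje cell markers step up between P0 and P7, oligodendrocyte markers are highest at P21, and endothelial and dividing cell markers go down.

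Each step called many probe sets, so the count of these 5 genes is given beside the share of all probe sets called the same way. At P7, 3 of the 5 genes were higher than at P0 and 1 was lower, where 33.6% and 28.5% of all probe sets were (62.1% in either direction). At P15, 4 were higher than at P7 and 1 was lower, where 10.4% and 13.6% were (24% in either). At P21, 1 was higher than at P15 and 0 were lower, where 10.5% and 7.16% were (17.7% in either). Without adjustment Klf9 (−0.22, limma p 0.0120) and Dio2 (−0.21, limma p 0.0388) had a p under 0.05 for a fall at that step, and Klf9 was called under 3 other settings. At P56, 1 was higher than at P21 and 2 were lower, where 22.1% and 34.3% were (56.4% in either). With array medians subtracted the balance of calls at this step changed. Thra (0.44), Klf9 (0.24) and Hr (0.26) were called higher and Dio2 (−0.50) lower, each with the sign it had as deposited. Thrb had no call (0.0096), and 69.1% of all calls were higher. Against P0 the adult had 3 higher and 1 lower, where 40.1% and 35.3% were (75.4% in either). Between ages that are not neighbours, 4 were higher and 1 lower at P15 than at P0 (33.5% and 30.5%, 64% in either) and at P21 than at P0 (34.6% and 29.5%, 64.1% in either). For P21 against P7 the counts were 2 and 1 (13.7% and 13.2%, 26.8% in either). For P56 they were 1 and 2 against P7 (25.4% and 34.2%, 59.6% in either) and 2 and 3 against P15 (23.1% and 32.9%, 56% in either). Klf9, Hr and Dio2 rose at both the first and the second step, as did 5.98% of probe sets, and Thra fell at both, as did 5.35%.

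All 5 genes differed between ages by the moderated F-test (adjusted p from 1.44e-15 for Klf9 to 0.00774 for Thrb), as did 81.6% of probe sets, so a difference with age as such is common on these arrays. In the second week all 5 genes were called, against 24% of probe sets, but the call of Thrb ended without any 1 of 7 arrays and that of Hr without P7 replicate 1, as given above. The genes were chosen with earlier results of these data known, so these counts are a description and no test of the set.

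**Figure D3:**
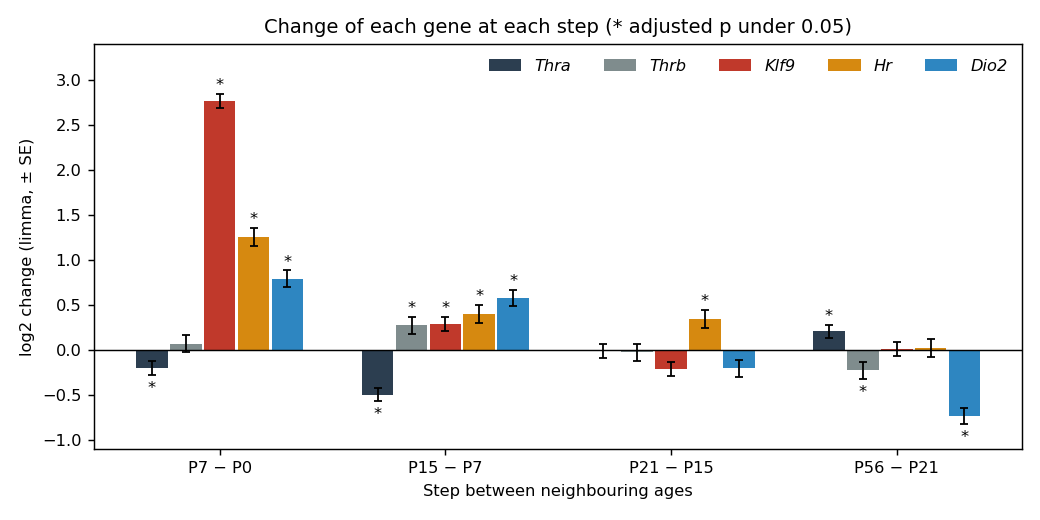
Change in log2 signal (vertical axis, limma estimate ± SE) of Thra, Thrb, Klf9, Hr and Dio2 at the 4 steps between neighbouring ages (horizontal axis), with a star where the adjusted p was under 0.05. The bar of Klf9 at the first step (2.77) exceeds all others, Hr is called up at 3 steps, and Dio2 goes down at the last (−0.73).

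The other genes of the pathway, 41 by name of which 38 were measured, went in both directions. From P0 to P7, 18 were higher and 12 lower, with a median change of 0.17 beside 0.06 over 19500 genes, and 33.6% and 28.5% of all probe sets were called in these directions. From P7 to P15, 4 were higher and 10 lower (6 with array medians subtracted), with a median of −0.04 beside 0.01, where 10.4% and 13.6% of probe sets were. From P15 to P21, 5 were higher and 2 lower, with a median of 0.07, where 10.5% and 7.16% of probe sets were. At the last step, 4 were higher and 18 lower, with a median of −0.17 beside −0.03, where 22.1% and 34.3% of probe sets were, and the counts became 11 and 11 with array medians subtracted. These genes were picked from the literature of thyroid hormone action and stand as a description.

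Of 4 transporter genes measured, 3 were lower and 1 was higher at P7 than at P0, a step that called 28.5% of all probe sets lower and 33.6% higher. Slco1c1, which carries T4 across the vessels of the brain, went from 9.78 to 7.03, a fall of 2.75 (SE 0.12, adjusted p 1.71e-12), beside the endothelial markers above. Slc7a5, an amino acid carrier that also takes the hormone, fell by 1.36 in the first week and by 1.28 between P21 and P56 (SE 0.08 each). Slc7a8, its relative, rose from 9.92 to 10.65 and on to 11.00 at P15. Slc16a10 went from 6.60 to 6.25. Slc7a8 was thus the 1 transporter gene of these 4 with a higher signal in the adult than in the newborn (0.59).

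Of the other deiodinases, Dio1 stayed at 4.72 to 4.91 and Dio3, which inactivates the hormone, at 5.54 to 5.85 as age means. These means lay below every array's lower quartile, although Dio3 on P7 replicate 3 (5.97) lay above that array's own (5.90), and neither is shown to be above background, although Dio3 was called higher at P7 than at P0 (0.31, adjusted p 0.0109). Crym, a T3-binding protein of the cytosol, was 7.87 at P0 and 7.67 at P7 and fell by 0.64 from P7 to P15 (SE 0.11, adjusted p 4.82e-04). Ttr, the T4 carrier made by the choroid plexus, fell by 1.49 in the first week (SE 0.31, adjusted p 4.25e-04).

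Among the retinoid X receptors, partners of TRα and TRβ on DNA, Rxrg fell at 3 steps, by 1.73 in the first week, 1.31 in the second and 0.68 after P21 (SE 0.10 each). It went from 9.26 at P0 to 5.69 at P56, where it is not shown to be above background. Rxrb rose by 0.98 in the first week (from 9.04 to 10.02) and fell by 0.36 in the second. Rxra was 8.40 at P0, 8.48 at P21 and 7.80 at P56, and its fall at the last step was 0.68. The 3 partners thus differed in the first week. All 3 were lower at P15 than at P7, as were 13.6% of all probe sets, and at P56 than at P21, as were 34.3%. With array medians subtracted the fall of Rxra in the second week (−0.17, adjusted p 0.0537) and that of Rxrb at the last step (−0.043, adjusted p 0.659) lost their calls, the latter also with quantile normalization (−0.048).

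Of 4 members of the corepressor complex that works with Ncor1, Hdac3, its histone deacetylase, did not pass the test before P21 and then fell by 1.01 to P56 (SE 0.07, adjusted p 1.65e-09). The change of Hdac3 from P7 to P15 (−0.16) was called under 6 of 22 other settings, among them quantile normalization (−0.20, adjusted p 0.0227). Gps2 fell by 1.01 in the first week (SE 0.06, adjusted p 1.19e-10), and the WD40 proteins Tbl1x and Tbl1xr1 rose by 0.39 and 0.36. Coactivator genes were split, with 4 of 9 higher and 5 lower at P7 than at P0 (33.6% and 28.5% of all probe sets). Kat2b, an acetyltransferase, rose by 2.04 (SE 0.08, adjusted p 5.62e-13), and the p160 coactivators Ncoa1 and Ncoa2 rose by 0.88 and 0.71. Their relative Ncoa3 fell by 0.89, and the acetyltransferases Ep300 and Crebbp fell by 1.04 and 0.73.

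Of 14 other measured genes known to respond to thyroid hormone in brain, 9 were higher and 1 was lower at P7 than at P0 (33.6% and 28.5% of all probe sets), with a median change of 1.21 beside 0.06 over all genes. Pcp2 is among them and also drives the transgene, and its rise of 4.63 is the rise of a Purkinje cell marker. The other rises came at the same step as that of the Purkinje cell markers (8 of 8 higher, median change 4.19). The part of a change in captured RNA in them was not tested. Rora, the nuclear receptor that Purkinje cells need for their dendrite, went from 10.61 to 12.81, and the neurofilament gene Nefh from 9.58 to 11.64. Dbp, a clock-controlled transcription factor, rose by 3.57 (SE 0.11, adjusted p 9.78e-15), in the same step as Nr1d1. The time of day of collection is not given in the labels. Camk4 (1.15), Shh (1.48), Sema7a (1.79), Kctd17 (1.14) and Mbp (1.27) rose as well, and Mme, a peptidase, fell by 1.43 to 5.64, where it is not shown to be above background. Nrgn, a postsynaptic calmodulin-binding protein, did not pass the test in the first week (0.22, adjusted p 0.153) and fell by 1.54 from P21 to P56 (SE 0.13). Mbp of myelin, itself 1 of the 6 oligodendrocyte markers, fell by 1.58 at that step. In the second week, 1 of these 14 genes was higher (Mbp, 0.28) and 3 were lower, near the 10.4% and 13.6% of all probe sets.

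**Figure D4:**
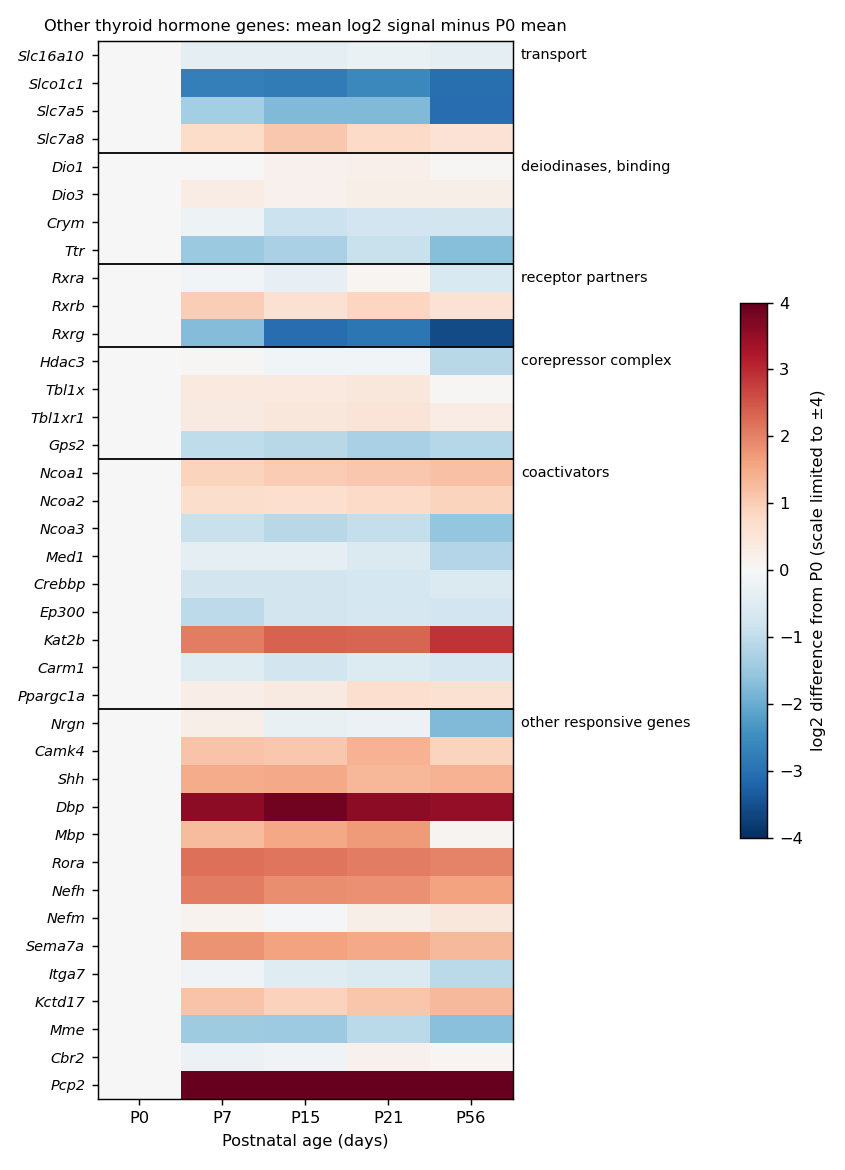
Mean log2 signal at each of 5 postnatal ages (horizontal axis) minus the P0 mean (colour), for 38 genes of thyroid hormone transport, metabolism, receptor partners, corepressors, coactivators and response (rows). Colours end at a difference of 4 in either direction, which Pcp2 passes; Slco1c1, Slc7a5 and Rxrg turn blue, and Kat2b, Dbp, Rora and Nefh turn red by P7.

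Klf9 also answers to glucocorticoids, so the glucocorticoid receptor gene Nr3c1 and 4 of its targets were read beside it. Nr3c1 rose by 0.75 from P0 to P7 (SE 0.07, adjusted p 3.03e-08) and Tsc22d3 by 1.68 (SE 0.09). Sgk1 rose by 0.71 and Per1 by 0.34, while Fkbp5 fell by 0.59, so 4 of 5 were higher and 1 was lower, at a step that called 33.6% of probe sets higher and 28.5% lower. In the second week 2 were higher and 2 lower (10.4% and 13.6% of all probe sets). From P15 to P21 Sgk1 (0.65), Per1 (0.50) and Fkbp5 (0.35) were higher (10.5% of all), and Klf9 was at −0.22 without a call. From P21 to P56 Sgk1 (−1.05), Tsc22d3 (−0.80), Per1 (−0.52) and Fkbp5 (−0.33) were lower (34.3% of all), and Klf9 was at 0.01. That call of Fkbp5 ended with array medians subtracted (−0.09). A part of glucocorticoids in the course of Klf9 was not tested. Among 5 other Kruppel-like factor genes, Klf13, the close relative of Klf9, rose by 1.44 in the first week (SE 0.09) and by 0.27 in the second. At the last step it fell by 0.40 (SE 0.09, adjusted p 6.56e-04), a call that ended with array medians subtracted (−0.17, adjusted p 0.0918). Klf16 (0.38) and Klf10 (0.32) rose in the first week, Klf11 fell (−0.72), and Klf14 was at −0.07 without a call. Later Klf16 (−0.43) and Klf11 (−0.28, adjusted p 0.0106) fell in the second week (13.6% of all probe sets were lower). That call of Klf11 ended with array medians subtracted (−0.21, adjusted p 0.0502). From P15 to P21 Klf10 fell (−0.63, 7.16% of all lower). At the last step Klf10 (−0.79) and Klf16 (−0.20) fell beside Klf13 (34.3% of all lower), and Klf16 turned with array medians subtracted (0.032). Klf11 (0.36) and Klf14 (0.46) rose at that step (22.1% of all higher).

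The genes with the course most like each of the 5 were found by Pearson correlation over the 15 arrays, among 6518 genes whose age means span at least 1 log2 unit. All of them share the same arrays and ages, so a high value reflects a shared course over 5 ages and is a description. For Klf9 they were Smdt1, Tmem200b and Clec2l (r = 0.998, 0.997 and 0.997), all with a step up between P0 and P7, in Tmem200b from 7.60 to 11.41. For Hr they were S100b (0.990), Septin8 (0.990) and Foxq1 (0.987), and S100b went from 6.90 at P0 to 9.64 at P56. For Dio2 they were Galnt9 (0.986), Tmem80 (0.971) and Gas6 (0.971), with Galnt9 highest at P15 (11.20). For Thra they were Lmnb1 (0.964), Psme1 (0.954) and Bub1b (0.952), of which Lmnb1, a nuclear lamin, went from 9.48 at P0 to 7.76 at P21. For Thrb they were Nmrk1 (0.848), Airn (0.848) and Cdh19 (0.841), a weaker likeness. Among the 5 genes themselves r was 0.914 for Klf9 and Hr, 0.785 for Thrb and Dio2, 0.775 for Klf9 and Dio2 and −0.838 for Thra and Hr.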

How the data were processed

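Ribosome-bound RNA from pooled cerebella was hybridised to 15 Affymetrix arrays, 3 per age. The authors deposited a log2 signal for each of 22092 probe sets. The submitters' processing notes name Affymetrix Power Tools; which algorithm, version and logarithm were used is not stated in what was read here. Base 2 was inferred from values between 3.15 and 14.08. An array has no read depth, and precision rests on the number of arrays. The labels do not say whether replicates are separate pools, so p-values may measure technical spread alone. They name no batch, which cannot be told apart from age.

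Of the probe sets 20996 carry a single symbol, 91 several and 1005 none in the annotation table, and a gene was read from its single-symbol probe set with the highest mean, which gave 19500 genes. A mean per age was fitted to all arrays with limma 3.58.1 (R 4.3.3), with two-sided tests and Benjamini-Hochberg adjustment within each contrast. The code was first tested on simulated data. With 3 arrays against 3, exact permutation of 1 gene reaches no p below 0.1. The members and lists were chosen with earlier results of these data known. Named genes are the members, the listed pathway genes and markers, Nr1d1, and for each member the 3 genes of highest correlation, passing over predicted genes, clones, receptors of smell and small RNAs. Alternatives were quantile normalization, subtraction of array medians, array weights, a trended and robust prior, the brightest 50% of probe sets, fits of 2 ages, a replicate block and arrays left out in turn. Same-numbered arrays did not deviate together (median r −0.0030 over 30 pairs, above 0.1 in 5), so the numbers were not taken to pair arrays. Ncor1 and some listed genes were not analysed here. Plots used matplotlib 3.10.9 under Python 3.11.15.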

Additional observations from a re-analysis of the deposited data

How the results depend on the processing

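The first-week rises of Klf9, Hr and Dio2, the second-week changes of Thra, Klf9 and Dio2, the fall of Dio2 after P21 and the P0 to P56 changes of Thra, Klf9, Hr and Dio2 kept direction and call under every setting that gave a value and without each of the 15 arrays. Over all settings, 44 of the genes' values lost a call, 10 gained one and 1 turned. Each gene has 1 probe set, so a mean over probe sets or another probe set could not be tried. Quantile normalization gave Thrb 0.28 from P7 to P15 and −0.18 from P21 to P56, both without a call, Hr 0.29 from P15 to P21 (not called) and 0.30 from P21 to P56 (called). It turned Nr3c1 (0.28) and Klf16 (0.070) at that last step. With array medians subtracted Thra lost its first-week call (−0.14), while Klf9 from P15 to P21 (−0.26), Klf9 (0.24) and Hr (0.26) from P21 to P56 and Thrb from P0 to P56 (0.41) gained one. Thrb turned from P21 to P56 (0.0096), as did Tbl1xr1 (0.022), Ppargc1a (0.17), Rora (0.19), Nefh (0.022), Sema7a (0.022), Nr3c1 (0.23) and Klf16 (0.032), and from P0 to P56 Sgk1 (0.29) and Klf16 (0.091). The probe sets called higher became 3583 from P7 to P15 (2296 as deposited), 11028 from P21 to P56 and 13631 from P0 to P56, and those called lower from P21 to P56 4935. Of the 38 other thyroid hormone genes, 6 were then lower from P7 to P15, and 11 were higher and 11 lower from P21 to P56. Array weights gave 3551 probe sets higher from P7 to P15 and Thrb −0.24 from P21 to P56, not called. A trended prior ended the calls of Thrb from P7 to P15 (0.27) and P21 to P56 (−0.23) and gave one to Klf9 from P15 to P21 (−0.22). The replicate block ended the same calls of Thrb (0.27 and −0.23) and no other of the 5 genes; 6 of 15 arrays correlated best with an array of their own number. Among the brightest 50% of probe sets, which hold neither Thrb nor Dio2, fewer are tested: 3532 were lower from P0 to P7, 2295 higher from P21 to P56, 4708 higher and 4982 lower from P0 to P56, 10830 differed between ages, and Klf9 was called from P15 to P21 (−0.22). Fits of 2 ages, with fewer arrays, ended the last-step calls of Thra (0.20) and Thrb (−0.23).

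Leaving out 1 array at a time gave Thra −0.23 to −0.19 from P0 to P7 and 0.16 to 0.30 from P21 to P56. Thrb had 0.25 to 0.31 from P7 to P15 and −0.32 to −0.16 from P21 to P56, and its change less that of Thra 0.22 to 0.32 from P0 to P7. Klf9 had −0.24 to −0.20 from P15 to P21, and Hr 0.31 to 0.45 from P7 to P15 and 0.30 to 0.41 from P15 to P21. Probe sets higher from P7 to P15 numbered 1524 (without P7 replicate 1) to 2543, and those lower from P15 to P21, 1581 with all arrays, 990 (without P15 replicate 3; 994 without P15 replicate 1) to 1929.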
